A study of Mus musculus with 24 samples.

Results

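The translation initiation factors other than the eIF4 group were followed in mouse neuroblastoma Neuro-2a (N2a) cells by RNA-seq and ribo-seq. Members were the transcripts in 8 deposited count tables whose gene symbol begins with Eif1, Eif2, Eif3, Eif5 or Eif6, leaving out the Eif2ak kinases, and 35 of 12759 listed transcripts met this rule. They comprise 14 transcripts of eIF3 subunits, 18 of the eIF1, eIF2, eIF2B and eIF5 families, and the 3 factors Eif2a, Eif2d and Eif6. KO cells were N2a cells transfected with Cas9 vectors carrying 3 guide RNAs against Eif4e3, and ctrl cells received the empty vector. Both were selected with puromycin after repeated transfection and kept as a pool of cells, not as a clone. Cells of both genotypes were treated for 2 h with 250 nM Torin1, an inhibitor of the kinase mTOR, or with the vehicle DMSO. Each replicate was another passage of the cells, so that the p-values below measure the spread between passages of 1 transfected pool per genotype.

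The initiation factors carry a ribosome from the capped mRNA end to the start codon. eIF1, eIF1A, eIF3, eIF5 and the complex of eIF2, GTP and initiator tRNA assemble on the small ribosomal subunit, eIF5 stimulates hydrolysis of the GTP at the start codon, eIF5B joins the large subunit, and eIF2B reloads eIF2 with GTP. eIF3 is the largest of these factors and is built from an octamer of subunits a, c, e, f, h, k, l and m to which b, d, g, i and the loosely held j are added. mTOR is known for its control of mRNAs with a terminal oligopyrimidine tract (TOP), a C at the cap followed by a run of C and T, which include the mRNAs of ribosomal proteins, elongation factors and several initiation factors.

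The 12 RNA-seq libraries held between 17047795 and 28910907 counts and the 11 ribo-seq libraries between 669010 and 5284909. Ctrl DMSO had 2 ribo-seq libraries, replicates 1 and 3, and replicate 3 was the shallowest of the 11. The authors discarded replicate 2 as an outlier, and it was not analysed here. The mRNA of Eif4e3, the targeted gene, averaged 16.1 CPM (counts per 1e6 library counts) in ctrl DMSO and 14.6 in ctrl Torin1, against 3.85 in KO DMSO and 4.74 in KO Torin1. Of 10 markers of fibroblasts, immune cells and glia 4 were listed in the RNA-seq, summing to between 5.29 and 7.23 CPM. The cells were lysed in bulk, so fewer cells carrying an mRNA and less of it per cell cannot be told apart. All values are relative to the total of a library, and a change in the total amount of RNA or footprints was not measured.

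Of the 35 members, 34 entered all 15 comparisons. Eif2s3y, the Y-linked copy of the eIF2 gamma subunit, did not pass the filter on low values. It was listed in no RNA-seq table, and its footprint counts were 3, 8 and 3 in KO DMSO, 0, 1 and 0 in KO Torin1 and 1 and 2 in ctrl DMSO. Eif3j1 and Eif3j2 share all of their coding 28-base stretches with each other and 42.9% of those of Eif1a are shared with the gene Gm5039, so reads of these 3 members may be split between near-identical copies and their values are uncertain.

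The 5′ ends of 12 members are shown to set those with fewer footprints per mRNA in Torin1 beside others. Eif3d is an eIF3 subunit without a call, and Eif5, Eif5b and Eif1ad rose in footprints per mRNA in KO cells. Each line gives the first 30 bases of the canonical transcript in GENCODE (mouse build GRCm38), 5′ to 3′, with the longest run of C and T in capitals. The first 8 belong to members with fewer footprints per mRNA in Torin1 in KO cells. They do not represent all 13 such members. A C followed by 4 pyrimidines, beginning in the bases 1 to 10, is absent from the rest, Eif3b, Eif3g, Eif3m, Eif2b4 and Eif2b5. It is present in 5 of 14 members without a call in KO cells and in 1 of 7 that rose, none of them shown.
Eif3f: CTCTTTCTCggcaagatggcttctccggcc
Eif3h: tcacggagcctcgtagttccgCTTCCggcg
Eif3i: agTCTTTTTCCggtcccactcacattgcct
Eif3l: tgggcgggaCTTCCggtccggccaagcagg
Eif3k: acaCCTCTCTTCCggtcctctagtgctaag
Eif3e: gaacaagcgCTCCTTTCCCCCggcaagatg
Eif2s3x: TTCCCCTTCgctccgcccaaggggcctacg
Eif2a: gCTCCggagagggagggcgagcgccggccg
Eif3d: ggtcgccgtttacggcaccggCCCCTgcgc
Eif5: aagCTgggacaggcaggaggcgggccgaga
Eif5b: acctggccggcggCTCTactggagacgctc
Eif1ad: aatcgccagccgcggcgCCCacgggggtcg
In the order printed, these ends lie at chr7:108934417-108934446 (+ strand), chr15:51865494-51865523 (- strand), chr4:129600619-129600648 (- strand), chr15:79075179-79075208 (+ strand), chr7:28981785-28981814 (- strand), chr15:43282690-43282719 (- strand), chrX:94212680-94212709 (- strand), chr3:58525821-58525850 (+ strand), chr15:77970784-77970813 (- strand), chr12:111538016-111538045 (+ strand), chr1:37998010-37998039 (+ strand) and chr19:5366741-5366770 (+ strand). All are exonic and begin the 5′ transcript leader (5′ TL). The leader of Eif3f is only 15 nt long and is followed at once by its start codon, and that of Eif3e is 27 nt long. RefSeq places some starts elsewhere. Its first 30 bases for Eif3f, beginning 2 bases upstream at chr7:108934415-108934444, and for Eif2s3x, beginning 58 bases downstream at chrX:94212622-94212651, both open with a C and a pyrimidine run.
Eif3f in RefSeq: CTCTCTTTCTCggcaagatggcttctccgg
Eif2s3x in RefSeq: CTTTTCTCTCCgagcaagatggctgggggt

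Torin1 lowered the footprints per mRNA of a group of eIF3 subunits, led by Eif3f, Eif3h, Eif3i and Eif3l, while their mRNAs did not pass the test. Translational efficiency (TE) is the footprint count per mRNA count, and a change in TE is given as a log2 fold change with its standard error. Adjusted p-values come from the quasi-likelihood test of edgeR, adjusted by Benjamini-Hochberg over all transcripts tested, and a member is called at an adjusted p under 0.05. In ctrl cells, Torin1 lowered the TE of 6 of 34 members and raised that of 1. Of all 10432 transcripts tested, 4.29% were called lower and 0.383% higher. In KO cells 13 of 34 fell and 7 rose, against 17.8% lower and 10.6% higher of 10535 transcripts. All 6 members lowered in ctrl cells (Eif3f, Eif3h, Eif3i, Eif3l, Eif2a and Eif2s3x) were among the 13 lowered in KO cells, and none of the raised members were shared. Without scaling beyond library size the median of all transcripts moved from -0.01 to 0.16 in ctrl and from -0.01 to 0.24 in KO cells. The member calls became 4 lower and 2 higher in ctrl cells and 10 lower and 9 higher in KO cells. Of all transcripts, 325 were then called lower and 183 higher of 10432 in ctrl cells. In KO cells 1192 were called lower and 2700 higher of 10535.

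The eIF3 subunits and the other factors differed in where their TE lay. In ctrl cells all 14 eIF3 transcripts had a TE estimate below 0 in log2 fold change, with a median of -0.56, and 4 of them were called. The 17 tested transcripts of the eIF1, eIF2, eIF2B and eIF5 families had a median of 0.18, with 1 called lower and 1 called higher, and the median of all transcripts tested was -0.01. In KO cells the eIF3 median was -0.71 with 9 of 14 called lower, and that of the other families was -0.0022 with 3 called lower and 6 higher. Within eIF3, the octamer had the lower median, -0.71 in ctrl and -1.05 in KO cells, against -0.21 and -0.41 for b, d, g, i and both copies of j. The genes of 1 complex are not independent, and these medians are descriptions.

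**Figure D1:**
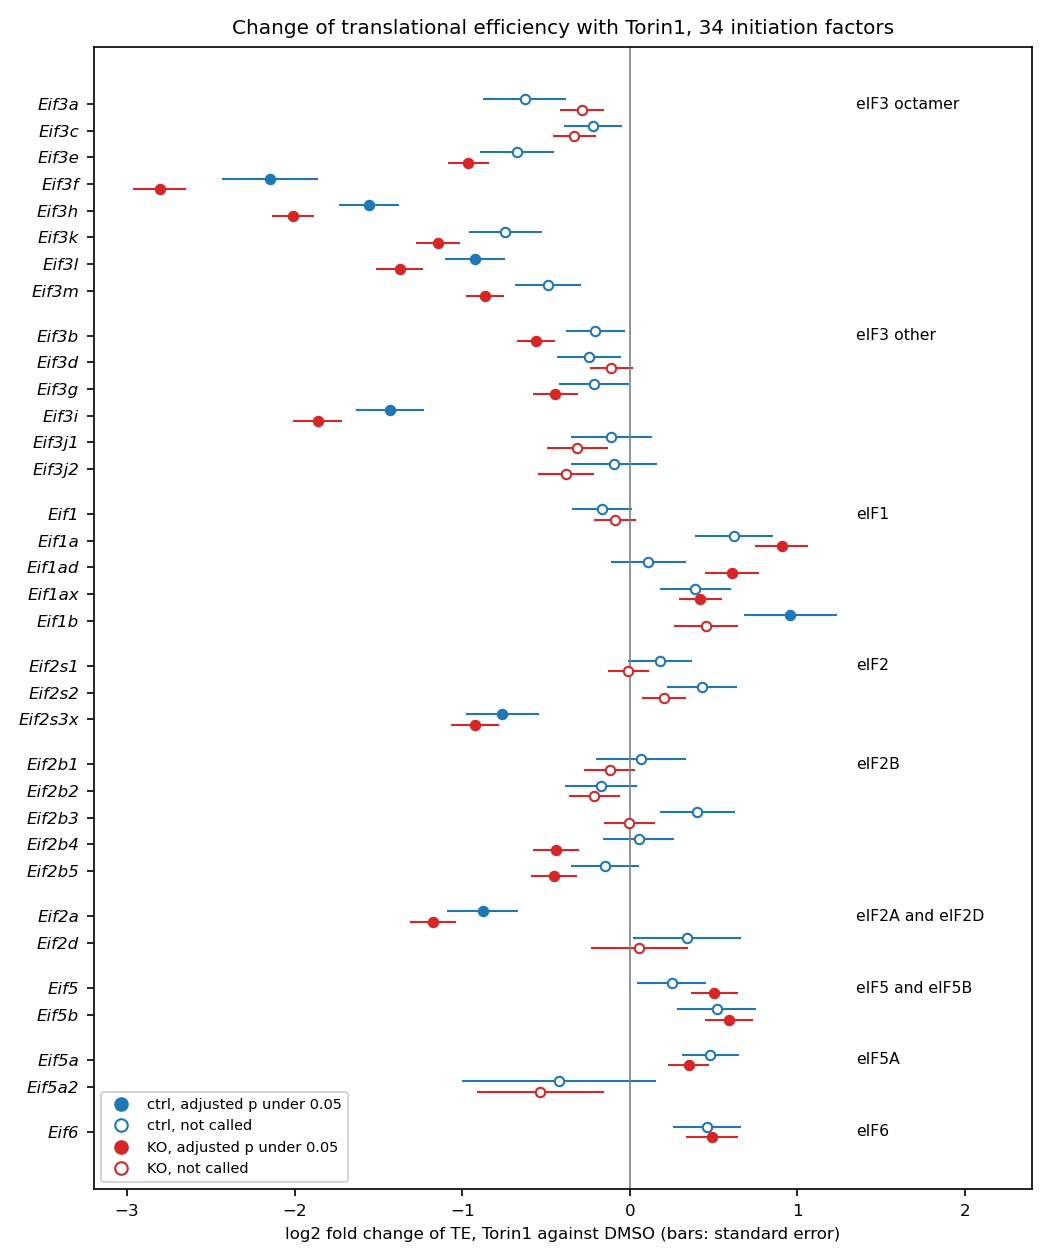
Change of TE with Torin1 for the 34 members tested, as log2 fold change with its standard error, in ctrl (blue) and KO cells (red). Filled points have an adjusted p under 0.05. Eif3f, Eif3h, Eif3i and Eif3l lie farthest to the left in both genotypes, all 14 eIF3 transcripts lie below 0, and the eIF1 and eIF5 factors lie mostly above it.

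Eif3f, an octamer subunit with an MPN domain, gave the largest change of any member. Its footprints stood at 301 and 173 CPM in ctrl DMSO and at 60.8, 45.8 and 37.5 CPM in ctrl Torin1. In KO cells they stood at 241, 243 and 281 CPM in DMSO and at 38.8, 35.9 and 33.7 CPM in Torin1. Every Torin1 library lay far below every DMSO library, and the 2 ctrl DMSO libraries differed among themselves more than those of any other condition. Eif3f footprints fell 5.22-fold in ctrl cells (log2 fold change -2.38, SE 0.214, adjusted p = 1.83e-07) and 7.12-fold in KO cells (log2 fold change -2.83, SE 0.135, adjusted p = 1.16e-17). Its mRNA was 568, 813 and 553 CPM in ctrl DMSO and 516, 553 and 578 CPM in ctrl Torin1, groups that overlap, and in KO cells 492, 584 and 453 CPM against 511, 509.7 and 479 CPM. The TE of Eif3f therefore fell with its footprints, 4.43-fold in ctrl cells (log2 fold change -2.15, SE 0.286, adjusted p = 3.13e-05) and 6.99-fold in KO cells (log2 fold change -2.80, SE 0.157, adjusted p = 6.68e-13). Only 0.489% of transcripts tested in ctrl cells had a lower TE change, and 0.370% in KO cells. Without ctrl DMSO replicate 1, or any other library, the TE call in ctrl cells held, at between -2.43 and -1.64.

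Eif3h, the other MPN-domain subunit, behaved alike at a higher level. Footprints of Eif3h were 489 and 518 CPM in ctrl DMSO against 165, 149.9 and 156 CPM in ctrl Torin1, and 525, 509.7 and 476 CPM in KO DMSO against 137, 127 and 116 CPM in KO Torin1. No library of Torin1 came near one of DMSO. They fell 3.20-fold in ctrl cells (SE 0.139 in log2, adjusted p = 5.89e-08) and 4.02-fold in KO cells (SE 0.116, adjusted p = 9.74e-16). Its mRNA was 834, 975 and 766 CPM in ctrl DMSO and 792, 761 and 809 CPM in ctrl Torin1, which overlap. TE of Eif3h fell by 1.56 on the log2 scale in ctrl cells (SE 0.177, adjusted p = 5.25e-06) and fell by 2.01 in KO cells (SE 0.124, adjusted p = 3.37e-12).

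Eif3i, a WD-repeat subunit outside the octamer that binds b and g, was the only one of its side module with a large fall. Its footprints were 394 and 306 CPM in ctrl DMSO against 114, 100.4 and 115 CPM in ctrl Torin1, and 349, 349 and 415 CPM in KO DMSO against 82.9, 102 and 108 CPM in KO Torin1. Again the groups did not overlap. TE of Eif3i fell by 1.43 in ctrl cells (SE 0.204, adjusted p = 7.71e-05) and fell by 1.86 in KO cells (SE 0.144, adjusted p = 1.95e-10). Its partner Eif3b, the scaffold subunit of the module, had footprints of 841 and 932 CPM in ctrl DMSO against 719, 718 and 738 CPM in Torin1, and of 866, 905 and 853 CPM in KO DMSO against 624, 574 and 610.0 CPM in Torin1. The libraries of Eif3b were lower with Torin1 without overlap, but by little. TE of Eif3b was -0.21 in ctrl cells without a call and fell by 0.56 in KO cells (SE 0.112, adjusted p = 0.000507). Eif3g, the RNA-binding subunit of the module, was -0.21 in ctrl cells, also without a call, and fell by 0.44 in KO cells (SE 0.132, adjusted p = 0.0135), a call lost without scaling beyond library size (-0.20, adjusted p = 0.211) and when the 4 conditions were fitted together (adjusted p = 0.0645).

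Eif3l, Eif3k, Eif3e and Eif3m, further subunits of the octamer, followed at smaller sizes. Eif3l footprints were 443 and 492 CPM in ctrl DMSO against 234, 217 and 221 CPM in Torin1, and 499, 535 and 644 CPM in KO DMSO against 232, 189 and 241 CPM in Torin1. Its TE fell by 0.93 in ctrl cells (SE 0.180, adjusted p = 0.00227) and fell by 1.37 in KO cells (SE 0.140, adjusted p = 3.1e-08). For Eif3k, Eif3e and Eif3m too, every Torin1 library had fewer footprints than every DMSO library of its genotype, and the footprints of all 3 were called lower in both genotypes. Their TE was called in KO cells, with falls of 1.15 for Eif3k, 0.96 for Eif3e and 0.87 for Eif3m. In ctrl cells their TE changes of -0.74, -0.67 and -0.49 missed the threshold (adjusted p = 0.0551, 0.0928 and 0.206). With the replicate number as a block, the TE of Eif3e was called in ctrl cells as well (-0.78, adjusted p = 0.0153). With the 4 conditions fitted together all 3 were called in ctrl cells (adjusted p = 0.00626 for Eif3k, 0.0187 for Eif3e and 0.0499 for Eif3m), and DESeq2 called Eif3k (adjusted p = 0.04). The ctrl call of Eif3m in footprints was lost without ctrl DMSO replicate 1 (-0.45, adjusted p = 0.118).

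Eif3a, the scaffold of the octamer, had footprints of 447 and 831 CPM in ctrl DMSO, 514, 547 and 643 CPM in ctrl Torin1, 585, 763 and 665 CPM in KO DMSO and 723, 642 and 718 CPM in KO Torin1. These groups overlap in both genotypes. Its mRNA in contrast rose with Torin1, from 686, 559 and 682 CPM to 882, 897 and 922 CPM in ctrl cells and from 733, 708 and 817 CPM to 884, 974 and 947 CPM in KO cells, again without overlap. Eif3a was the only member whose mRNA rose, by 0.49 on the log2 scale in ctrl cells (SE 0.115, adjusted p = 0.0459) and by 0.32 in KO cells (SE 0.071, adjusted p = 0.0175). Of all mRNAs tested, 2.05% were called higher in ctrl and 6.23% in KO cells. The call for Eif3a was lost in 4 of 6 fits that left out 1 library in ctrl cells (without ctrl DMSO replicate 1 or any of the 3 ctrl Torin1 libraries) and in 3 of 6 in KO cells (without KO DMSO replicate 1 or KO Torin1 replicate 2 or 3), with log2 fold changes between 0.28 and 0.54 in all of these fits. The TE change of Eif3a, -0.63 in ctrl (SE 0.246, adjusted p = 0.186) and -0.28 in KO cells (SE 0.132), did not pass the test.

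Eif3d, the subunit known for its own cap-binding activity, and Eif3c, which binds eIF1 and eIF5, had no TE call in the main fits. Footprints of Eif3c were 786 and 903 CPM in ctrl DMSO against 738, 645 and 759 CPM in ctrl Torin1. In KO cells they were 819, 1080 and 1069 CPM in DMSO against 791, 750 and 814 CPM in Torin1. The libraries of Eif3c were thus lower with Torin1 without overlap in both genotypes, but by little. Footprints of Eif3d were 710.5 and 786 CPM in ctrl DMSO against 543, 581 and 637 CPM in ctrl Torin1, but 625, 769.7 and 732 CPM against 723, 660.1 and 685 CPM in KO cells, where the groups overlap. The TE change of Eif3d (-0.24 in ctrl, -0.11 in KO) and that of Eif3c (-0.22 and -0.33) did not pass the test, and the footprints of Eif3c were called lower in KO cells (-0.35, adjusted p = 0.0101), though not without scaling beyond library size (-0.10) or without replicate 2 of KO DMSO or KO Torin1. With the replicate number as a block, the footprints of Eif3d were called lower in ctrl cells (-0.35, adjusted p = 0.0409) and the TE of Eif3c in KO cells (-0.31, adjusted p = 0.0497). Eif3j1 and Eif3j2, whose protein is the loosely held subunit, had TE changes of -0.11 and -0.10 in ctrl cells and of -0.31 and -0.38 in KO cells, without a call.

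**Figure D2:**
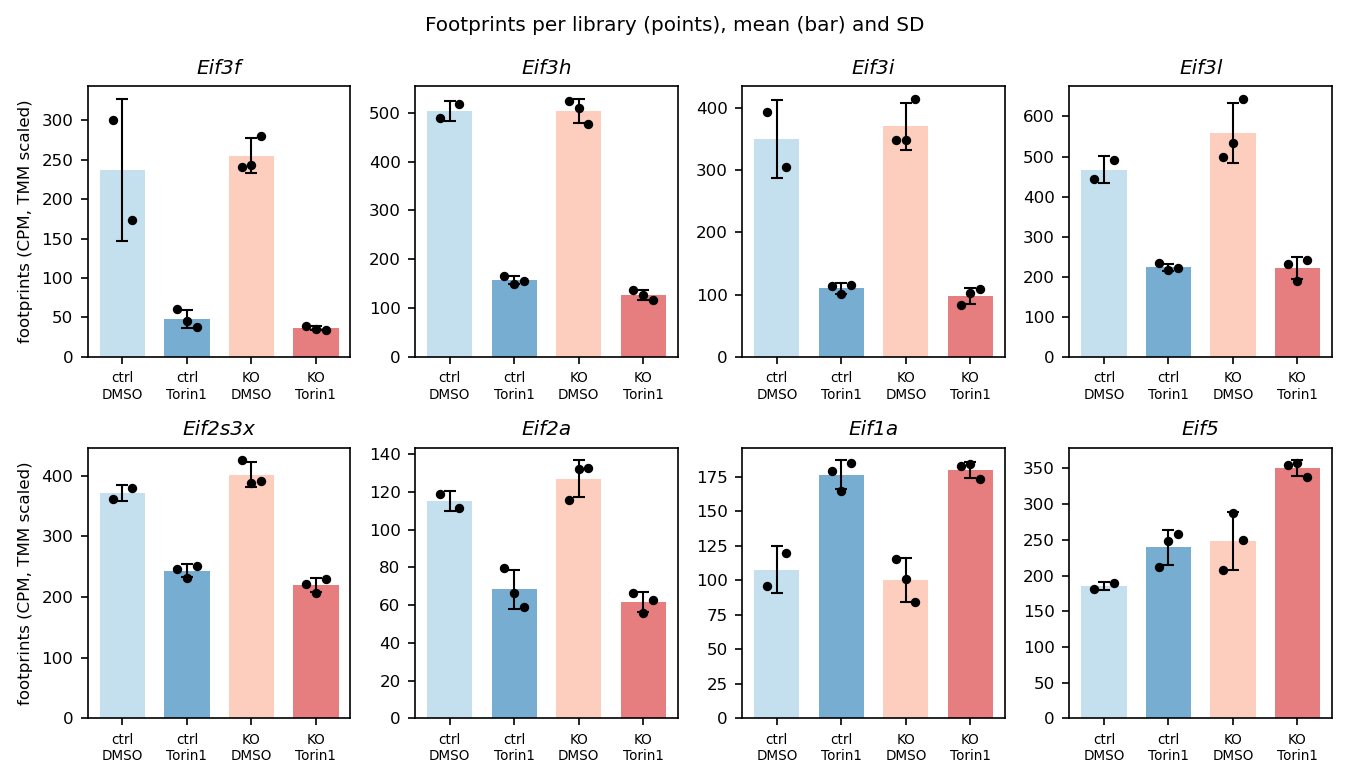
Footprints per library for 8 members in the 4 conditions, in CPM after TMM scaling. Points are libraries, bars the mean and error bars the SD (n = 2 in ctrl DMSO, n = 3 otherwise). The Torin1 points of Eif3f, Eif3h, Eif3i, Eif3l, Eif2s3x and Eif2a lie below all DMSO points of the same genotype, and those of Eif1a lie above them.

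The subunits of eIF3 ended up with less even footprints. Levels between genes are compared here as CPM per kb of coding sequence, for the 12 subunits without both copies of j. In DMSO, footprint levels per kb ranged 3.00-fold in ctrl and 2.86-fold in KO cells, from Eif3a at 158 and 166 to Eif3h at 475 and 476 CPM per kb. In Torin1 the range was 8.05-fold in ctrl and 12.6-fold in KO cells, and the lowest subunit was now Eif3f, at 44.2 and 33.3 CPM per kb, and the highest Eif3d, at 356 and 419. The SD of the log2 footprint level across the 12 subunits, taken in each library, was 0.453 to 0.548 in ctrl DMSO and 0.407 to 0.468 in KO DMSO, and 0.741 to 0.903 in ctrl Torin1 and 0.934 to 0.953 in KO Torin1. Each Torin1 library therefore had a wider spread than each DMSO library. The mRNA levels per kb of the same subunits ranged 5.32-fold and 3.80-fold in DMSO and 4.18-fold and 3.74-fold in Torin1, in ctrl and KO cells, with no widening. The 5 subunits of eIF2B, another multi-subunit factor, kept a footprint range per kb of 1.92-fold and 1.74-fold in DMSO and of 1.93-fold and 2.03-fold in Torin1.

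**Figure D3:**
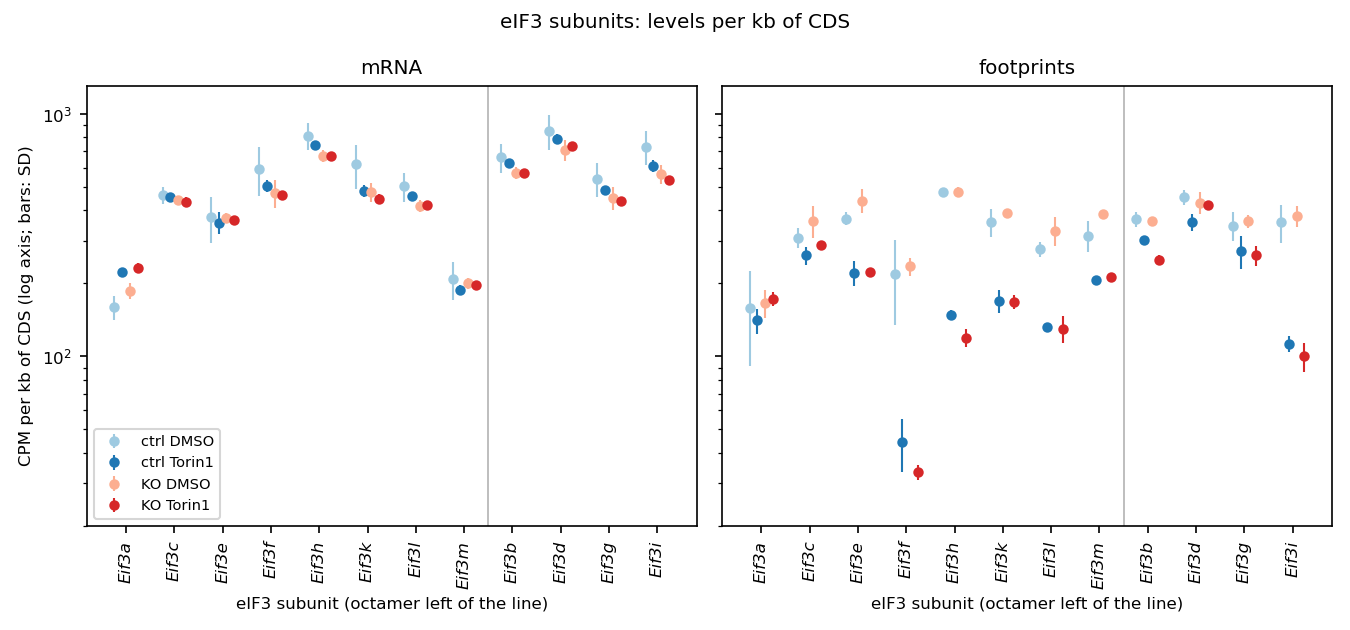
Levels of the 12 eIF3 subunits without j in the 4 conditions, as mean CPM per kb of coding sequence with SD on a log axis, for mRNA and for footprints. In footprints the Torin1 values of Eif3f, Eif3h and Eif3i lie far below their own DMSO values. Eif3f is the lowest subunit in Torin1, at 33.3 CPM per kb in KO cells, and Eif3h lies among other subunits. The mRNA values of the 4 conditions lie close together.

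Of the eIF2 subunits, only gamma was called with Torin1 in the pairwise fits with TMM scaling. Eif2s3x, the X-linked gene of the subunit that binds GTP and the initiator tRNA, had footprints of 361 and 380.2 CPM in ctrl DMSO against 246, 231 and 251 CPM in ctrl Torin1, and of 425, 387 and 392 CPM in KO DMSO against 222, 207 and 229 CPM in KO Torin1. The groups did not overlap in either genotype. TE of Eif2s3x fell by 0.76 in ctrl cells (SE 0.218, adjusted p = 0.0499) and fell by 0.92 in KO cells (SE 0.142, adjusted p = 1.92e-05). The ctrl call was lost in 8 of 11 fits that left out 1 library and without scaling beyond library size (adjusted p = 0.183). The footprints alone were called in both genotypes, in ctrl cells not without ctrl Torin1 replicate 2 (adjusted p = 0.0538). Eif2s1, the alpha subunit that carries the regulatory phosphorylation site, had a TE change of 0.18 in ctrl and -0.01 in KO cells. That of Eif2s2, the beta subunit, was 0.43 and 0.20, with no call for either. Eif2s2 footprints were 512 and 476 CPM in ctrl DMSO and 577, 644 and 551 CPM in ctrl Torin1, without overlap, but overlapped in KO cells. Without scaling beyond library size they were called higher in ctrl (0.47, adjusted p = 0.0249) and KO cells (0.27, adjusted p = 0.035). So was TE in KO cells (0.45, adjusted p = 0.00708), a setting in which the median of all transcripts also rose. Footprint levels per kb of the 3 subunits ranged 1.90-fold in ctrl DMSO and 3.46-fold in ctrl Torin1, and 2.52-fold and 4.75-fold in KO cells, each time from Eif2s3x to Eif2s2.

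The 5 subunits of eIF2B, the exchange factor of eIF2, had TE changes between -0.17 and 0.40 in ctrl cells, without a call. In KO cells the catalytic subunit Eif2b5 fell by 0.45 (SE 0.138, adjusted p = 0.0152) and Eif2b4 by 0.44 (SE 0.136, adjusted p = 0.0172). Footprints of Eif2b5 were 109.7, 107 and 96.1 CPM in KO DMSO and 87.3, 69.8 and 78.2 CPM in KO Torin1, and those of Eif2b4 were 84.8, 86.0 and 92.6 CPM against 69.2, 62.7 and 70.8 CPM, small differences that did not overlap. Neither TE call held without KO Torin1 replicate 2 of the ribo-seq or with plain library-size scaling, and that of Eif2b4 was also lost when the 4 conditions were fitted together.

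The eIF1 and eIF1A factors, which keep the scanning ribosome open and check the start codon, had TE estimates above 0 in all but Eif1. Footprints of Eif1a, an autosomal eIF1A gene, were 95.9 and 119.7 CPM in ctrl DMSO and 179.6, 165 and 185 CPM in ctrl Torin1, and 116, 101 and 83.96 CPM in KO DMSO and 183, 184 and 173 CPM in KO Torin1. Every Torin1 library exceeded every DMSO library. Eif1a footprints rose by 0.76 on the log2 scale in ctrl cells (SE 0.160, adjusted p = 0.0031) and by 0.83 in KO cells (SE 0.125, adjusted p = 2.53e-06), and its TE rose by 0.91 in KO cells (SE 0.157, adjusted p = 9.57e-05), while the change of 0.62 in ctrl cells did not pass (adjusted p = 0.162). The ctrl footprint call was lost without ctrl DMSO replicate 1, where the log2 fold change was 0.56. Eif1ax, the X-linked eIF1A gene, rose in TE in KO cells by 0.42 (SE 0.126, adjusted p = 0.0135). This call was lost when the 4 conditions were fitted together (adjusted p = 0.0507), and that of its footprints in KO cells (0.27, adjusted p = 0.0447) in 4 of 6 fits that left out 1 library (KO DMSO or KO Torin1 replicate 1 or 3).

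Eif1b, a close relative of eIF1, was the member whose TE rose in ctrl cells. Its footprints were 26.8 and 17.8 CPM in ctrl DMSO, the second of these from a library with 11 counts of Eif1b, and 42.7, 43.0 and 35.8 CPM in ctrl Torin1. The groups did not overlap, and TE rose by 0.96 (SE 0.275, adjusted p = 0.0499). This call was lost in 9 of 11 fits that left out 1 library and with the replicate block (adjusted p = 0.062), and in KO cells the change was 0.45 (adjusted p = 0.0756). Eif1ad, a protein with an eIF1A-like domain, had mRNA of 72.3, 84.7 and 80.3 CPM in KO DMSO and 56.3, 53.7 and 64.6 CPM in KO Torin1, and of 84.7, 90.0 and 75.1 CPM in ctrl DMSO and 60.7, 63.3 and 56.5 CPM in ctrl Torin1. The mRNA of Eif1ad thus lay lower in every Torin1 library of both genotypes. It fell by 0.44 in KO cells (SE 0.0928, adjusted p = 0.0125), where 3.74% of mRNAs were called lower, a call lost without KO Torin1 replicate 1 or 2 (adjusted p up to 0.0826). In ctrl cells, where 0.675% were called lower, the change of -0.47 missed the threshold (adjusted p = 0.0608) and passed it with the replicate block (adjusted p = 0.0183). Its footprints did not pass, and its TE rose by 0.61 in KO cells (SE 0.160, adjusted p = 0.00572). Eif1 itself was at -0.17 and -0.09 in TE.

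Eif5, the GTPase-activating protein of eIF2, and Eif5b, the subunit-joining GTPase, rose in KO cells. Footprints of Eif5 were 182 and 189 CPM in ctrl DMSO, 212, 248 and 258 CPM in ctrl Torin1, 208, 288 and 249 CPM in KO DMSO and 355, 358 and 338 CPM in KO Torin1. The 3 KO Torin1 libraries were higher than all 8 others. TE of Eif5 rose with Torin1 by 0.50 in KO cells (SE 0.139, adjusted p = 0.00813) and was 0.25 in ctrl cells without a call. Eif5b footprints were 211 and 351 CPM in ctrl DMSO against 384, 353 and 452 CPM in Torin1, and 260.0, 375 and 316 CPM in KO DMSO against 502, 487 and 462 CPM in Torin1. Its TE rose by 0.59 in KO cells (SE 0.143, adjusted p = 0.00303) and was 0.52 in ctrl cells without a call. With the replicate block its footprints were called higher in ctrl cells too (0.63, adjusted p = 4.48e-05). Eif5a, which carries the hypusine residue and aids elongation and termination, rose in TE by 0.35 in KO cells (SE 0.124, adjusted p = 0.0351), a call lost in 6 of 12 fits that left out 1 library. Its paralogue Eif5a2, with 6.94 to 16.6 CPM in footprints, was at -0.42 and -0.53 with a large error in ctrl cells (SE 0.581).

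The 3 factors outside these families went separate ways. Eif2a, a factor that can bring initiator tRNA to the ribosome without eIF2, had footprints of 119 and 112 CPM in ctrl DMSO against 79.7, 66.6 and 59.0 CPM in Torin1, and of 116, 132 and 133 CPM in KO DMSO against 66.6, 56.0 and 62.8 CPM in Torin1. All Torin1 libraries were lower, and TE fell by 0.88 in ctrl cells (SE 0.212, adjusted p = 0.0155) and fell by 1.17 in KO cells (SE 0.136, adjusted p = 2.56e-07). The ctrl call in TE was lost in 4 of 11 fits that left out 1 library (ctrl Torin1 replicate 1 of the RNA-seq, or ctrl DMSO replicate 1 or ctrl Torin1 replicate 2 or 3 of the ribo-seq, adjusted p up to 0.134) and without scaling beyond library size (adjusted p = 0.0698), and the ctrl call in footprints was lost in 2 of 5 (ctrl DMSO replicate 1 or ctrl Torin1 replicate 3). Eif6, which holds the large subunit apart from the small one, rose in TE by 0.49 in KO cells (SE 0.155, adjusted p = 0.0194), though not past the threshold without KO DMSO replicate 2 of the ribo-seq (adjusted p = 0.0554). Its footprints overlapped between treatments, while its mRNA was 201, 238 and 177 CPM in KO DMSO and 172, 159 and 158 CPM in KO Torin1 (-0.33, adjusted p = 0.0558, and adjusted p = 0.0146 with the replicate block). In ctrl cells Eif6 mRNA was 223, 317 and 244 CPM in DMSO and 190.2, 176 and 189.9 CPM in Torin1, lower in every Torin1 library (-0.49, adjusted p = 0.0743, and 0.0133 with the block). Eif2d, a factor of ribosome recycling and reinitiation, had between 5.74 and 18.1 CPM in footprints and no call.

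Counted over footprints alone, 9 members fell and 2 rose in ctrl cells, where 9.93% and 5.69% of 10693 transcripts were called lower and higher. In KO cells 14 fell and 4 rose, against 22.1% and 18.5% of 10822. Of the 2 that rose in ctrl cells, Eif1b (0.71, adjusted p = 0.0451) lost its call in all 5 fits that left out 1 library and with DESeq2. Of the 14 eIF3 transcripts, 7 fell in ctrl and 10 in KO cells and none rose. Of the 17 in the eIF1, eIF2, eIF2B and eIF5 families, 1 fell and 2 rose in ctrl cells and 3 fell and 4 rose in KO cells. Without scaling beyond library size the median of all footprint changes moved from 0.02 to 0.23 in ctrl cells. In KO cells it moved from 0.02 to 0.26. The member calls became 9 lower and 7 higher in ctrl cells and 10 and 10 in KO cells. Of all transcripts, 684 were then called lower and 1691 higher of 10693 in ctrl cells. In KO cells 1532 were called lower and 3766 higher of 10822. In mRNA the median change was -0.11 for eIF3 and -0.10 for the other families in ctrl cells and -0.0091 and -0.05 in KO cells, so that the members' footprints moved with little movement of their mRNAs. Ctrl DMSO replicate 2 of the RNA-seq had the highest mRNA of several eIF3 subunits, such as 813 CPM for Eif3f and 501 CPM for Eif3k, and without it the eIF3 median in ctrl cells was -0.02.

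**Figure D4:**
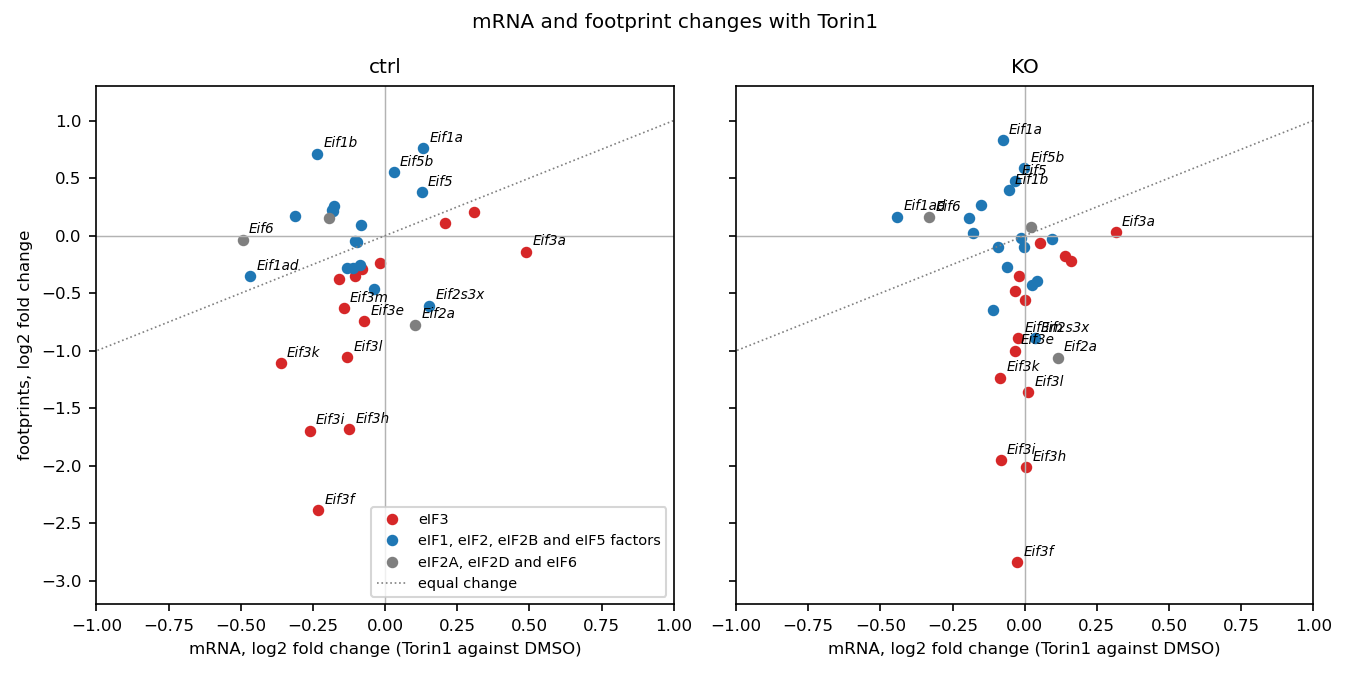
Log2 fold change with Torin1 of footprints against that of mRNA for the 34 members, in ctrl and KO cells. Members spread along the footprint axis, from -2.83 for Eif3f to 0.83 for Eif1a in KO cells, while their mRNA changes lie between -0.49 and 0.49.

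TE as a level, the ratio of mean footprint to mean mRNA CPM divided by that of the median transcript, had a median of 0.662 for eIF3 and 1.15 for the eIF1, eIF2, eIF2B and eIF5 families in ctrl DMSO, and of 0.870 and 1.76 in KO DMSO. With Torin1 it was 0.577 and 1.48 in ctrl cells and 0.643 and 1.69 in KO cells. Eif3f stood at 0.397 in ctrl DMSO and at 0.0969 in ctrl Torin1, and Eif1a at 3.66 and 5.60. The classes overlapped widely in ctrl DMSO, where Eif3j2 stood at 4.66, Eif3j1 at 2.46 and Eif3m at 1.63, and Eif2b5 of the other families at 0.377. The ratios of Eif3j1, Eif3j2 and Eif1a are uncertain, since their reads may be split between near-identical copies. Both counts cover the same coding sequence, so that its length cancels, and these ratios are a description without a test.

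KO and ctrl cells differed in few members. In DMSO no member differed between KO and ctrl in mRNA, footprints or TE by edgeR, with 2 of 34 members at an unadjusted p under 0.05 in each of the 3 measures, and none by DESeq2 or, for TE, limma-voom. In that contrast 0.00915% of all transcripts were called lower and 0.00915% higher in mRNA, 0.0186% and 0.0093% in footprints and 0% in either direction in TE. An unadjusted p under 0.05 by edgeR was reached by 646 of 10924 mRNAs, 850 of 10757 transcripts in footprints and 426 of 10475 in TE. With the replicate number as a block 4 mRNAs were called lower in KO cells, Eif3i (-0.36, adjusted p = 0.00885), Eif3k (-0.36, adjusted p = 0.0101), Eif6 (-0.34, adjusted p = 0.019) and Eif3f (-0.32, adjusted p = 0.0224). Over all mRNAs the block called 270 lower and 596 higher of 10924. The eIF3 median in mRNA was -0.23 and rested in part on ctrl DMSO replicate 2, without which it was -0.11.

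In Torin1, Eif5 had more footprints in KO than in ctrl cells. The values given above, 355, 358 and 338 CPM in KO against 212, 248 and 258 CPM in ctrl Torin1, did not overlap, and footprints were 1.46-fold higher (log2 fold change 0.55, SE 0.105, adjusted p = 0.000693). Eif5 mRNA was 227, 233 and 221 CPM in KO and 249.7, 245 and 220.5 CPM in ctrl Torin1, and TE was 1.54-fold higher in KO cells (log2 fold change 0.62, SE 0.108, adjusted p = 0.00172). Eif5 was the only member called in this contrast, in which 2.02% of transcripts were called higher and 4.01% lower in footprints and 0.59% and 2.26% in TE. The TE call held in all 12 fits that left out 1 library and was lost when the 4 conditions were fitted together (adjusted p = 0.0911). In DMSO the footprints of Eif5 were also higher in KO cells by estimate (0.43) but did not pass (adjusted p = 0.575), and the difference between the treatments was not significant (interaction 0.28 in TE, SE 0.252, adjusted p = 0.934).

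With the replicate number as a block, more members passed between KO and ctrl cells in Torin1, and so did more of all transcripts. Over all transcripts it called 496 lower and 283 higher of 10706 in footprints, and 382 lower and 147 higher of 10461 in TE. Footprints of Eif2s2 (0.31, adjusted p = 0.0187), Eif3a (0.29, adjusted p = 0.0317) and Eif5b (0.30, adjusted p = 0.0425) were called higher and those of Eif3b lower (-0.27, adjusted p = 0.0455), and TE of Eif3d was called higher (0.34, adjusted p = 0.0277). In mRNA, 11 of 34 members and 1954 of all 11007 transcripts were at an unadjusted p under 0.05 without the block. Of all transcripts 0.954% were called lower and 1.01% higher without it, and 504 and 537 of 11007 with it. No member was called without the block, and DESeq2 called 1 lower. With the block 8 were called lower, all by little, from Eif3i (-0.19, adjusted p = 0.00268) and Eif6 (-0.18, adjusted p = 0.0119) to Eif3l (-0.12, adjusted p = 0.0412), the others being Eif2b2, Eif2b4, Eif3b, Eif3g and Eif3h.

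Whether the response to Torin1 differed between KO and ctrl cells was tested by the interaction of genotype and treatment. No member was called in mRNA, footprints or TE by edgeR, where 0, 1 and 2 of 34 were at an unadjusted p under 0.05. Of all transcripts 0% were called in mRNA and in TE, and 0.111% in footprints. An unadjusted p under 0.05 was reached by 108 of 11073, 738 of 10804 and 607 of 10549 transcripts in mRNA, footprints and TE. The larger estimates in KO cells given above are thus not shown to differ from those in ctrl cells. The interaction in TE was -0.61 for Eif3f (SE 0.343, adjusted p = 0.899) and -0.43 for Eif3h (SE 0.194, adjusted p = 0.853), and the median over eIF3 was -0.29 against -0.00013 over all transcripts. More members passed in KO than in ctrl cells, where 1 fewer ribo-seq library was used.

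The lengths of the 5′ leaders divided the members in a similar way to their response. Annotated in GENCODE, the median leader was 73.5 nt for the 14 eIF3 transcripts (range 15 to 141 nt), 231 nt for the 17 of the other families (76 to 626 nt) and 173 nt for all 10511 transcripts with an annotated 5′ end. It was 76 nt for the 13 members with lower TE in KO cells and 353 nt for the 7 with higher TE (188 to 626 nt). Only 1.24% of the transcripts had a shorter leader than Eif3f. Eif5 (626 nt) and Eif1ad (602 nt) had the longest leaders of the members. Eif2a, with 238 nt, and Eif2b4, with 407 nt, had a lower TE in KO cells in spite of long GENCODE leaders. Eif3b, with 33 nt, fell far less than Eif3f. These lengths depend on the annotated start. RefSeq places that of Eif2b4 291 bases, of Eif2s1 253 bases and of Eif1b 115 bases downstream, and that of Eif2a at the same base. For Eif5a, whose GENCODE leader has 188 nt, it lists a start at the same base and others 572 to 1328 bases downstream. Across the 34 members, Spearman's rho of the TE change with leader length came to 0.668 for ctrl and 0.759 for KO cells, and across all transcripts it was 0.170 (n = 10367) and 0.258 (n = 10429). Subunits of 1 complex are not independent points, and all points share the same libraries.

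Split at 100 nt, a value chosen after the data had been seen, 14 members had a leader of up to 100 nt, of which 11 fell and none rose in TE in KO cells (78.6% lower, against 26.3% of all transcripts with such leaders). In ctrl cells 5 of these 14 fell and none rose (35.7% lower, against 6.68%). Of the 20 members with longer leaders 2 fell and 7 rose in KO cells. These are 10% lower and 35% higher, against 14.6% and 13.1% of all such transcripts. In ctrl cells 1 fell and 1 rose, 5% each way, against 3.42% lower and 0.49% higher of all such transcripts.

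**Figure D5:**
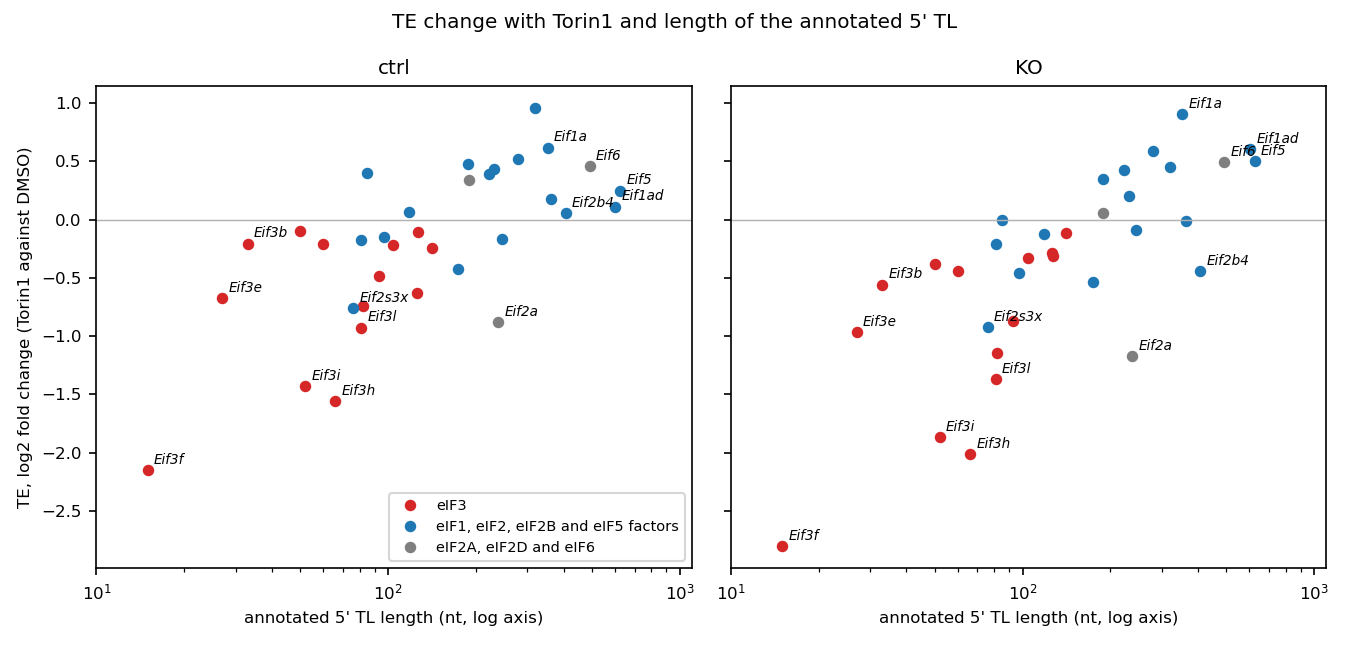
Change of TE with Torin1 (log2 fold change) against the annotated length of the 5′ leader in nt on a log axis, for the 34 members in ctrl and KO cells (red, eIF3; blue, eIF1, eIF2, eIF2B and eIF5 factors; grey, Eif2a, Eif2d and Eif6). Eif3f lies at the lower left with 15 nt and -2.80 in KO cells, and the members that rose in KO cells lie at the right, from 188 to 626 nt.

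The sequence at the start was searched on the transcript strand for a C followed by 4 bases that are each C or T. At the first base the motif was found in 2 of 34 members, Eif3f and Eif2s1, against 2.30% of all transcripts and 9.88% of 81 ribosomal protein mRNAs. Beginning at any of the bases 1 to 10, it was found in 7 of 14 eIF3 transcripts (50%), in 4 of 17 of the other families (23.5%), in 16.8% of all transcripts and in 32.1% of the ribosomal protein mRNAs. It was in 6 of the 13 members with lower TE in KO cells and in 1 of the 7 with higher TE. The tract at the GENCODE starts did not go along with the response in each member. Eif3c carries a run of 14 pyrimidines from base 3 without a call in TE, and Eif2s1 begins with the motif without a call. Eif3h fell by more than any member but Eif3f without the motif in the bases 1 to 10. The RefSeq starts differ. Those of Eif3c and Eif2s1, 45 and 253 bases downstream, and that of Eif3k lack the motif in the bases 1 to 10. Those of Eif3b and Eif1ad have it there, and Eif3h had no RefSeq match. Annotated starts are imprecise, as the RefSeq start of Eif2s3x above shows, and no match says only that these letters are not in this window.

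Other genes of the translation machinery give the scale of these changes. Of 81 ribosomal protein mRNAs 78 had lower TE in ctrl cells with Torin1 (median -1.72) and 79 in KO cells (median -2.04). Of 7 elongation and termination factors 5 were lower in each genotype (medians -1.87 and -2.15), among them Eef2, the translocase of elongation, at -3.61 and -3.72, and Gspt1, a release factor, was higher in KO cells (0.38). The fall of Eif3f was larger than the median of the ribosomal proteins in both genotypes, and that of every other member was smaller. Of 8 tested eIF4 factors Eif4a2, a helicase of the cap complex, and Eif4b, its cofactor, were lower in both genotypes (-1.70 and -1.27 in ctrl, -1.58 and -1.24 in KO cells), and Eif4g1 and Eif4g3, the scaffolds of that complex, were higher in KO cells (0.42 and 0.50).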

How the data were processed

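Neuro-2a cells were profiled by stranded mRNA-seq and ribo-seq. Per the methods and labels, the authors trimmed reads with cutadapt, mapped them with HISAT2 (mm10) and Bowtie2, and deposited counts per coding sequence of canonical Ensembl transcripts, without normalization, in 8 tables (1 per assay and pair of conditions). A footprint count is a P-site from riboWaltz for reads of 25 to 35 nt. The edgeR fold changes and p-values in those tables and 2 tables of TE, all from the authors' own comparisons, were not used. Replicate numbers were ambiguous for 4 columns of an RNA-seq table, whose counts equal those of replicates 2 and 3 in other tables.

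Counts were fitted for each pair of conditions with edgeR 4.0.16 in R 4.3.3 (TMM scaling, quasi-likelihood test, every library of at least 1 condition above 1 CPM, Benjamini-Hochberg over the whole table). TE was the interaction of assay and condition in 1 edgeR model of both assays. The authors used RiboDiff for TE, which was not used here. CPM values are TMM scaled. Each test was tested on simulated data, with 200 transcripts given a log2 change of 1. They were drawn only from transcripts above a minimum mean count, so that recovery at low mean counts was not measured. For Torin1 the TE fits recovered 95 in ctrl and 159 in KO cells. For the genotypes they recovered 63 in DMSO and 147 in Torin1. In that order, 10432, 10535, 10475 and 10509 transcripts were fitted, with 2, 9, 4 and 6 false calls. Alternatives were the replicate block, no scaling, DESeq2 1.42.0 and its size factors, no filter, limma-voom (limma 3.58.1, for TE), 1 fit of all 4 conditions and leaving out each library.

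The labels state that each replicate is another passage, so that equal numbers pair the samples. The main fits did not use this pairing, and the block fits did. Deviations from the group mean correlated at -0.04 to 0.74 between same-numbered RNA-seq libraries and at -0.04 to 0.13 between ribo-seq libraries. Between libraries of different numbers the correlations were -0.59 to 0.43 in RNA-seq and -0.13 to 0.12 in ribo-seq. In the block fits of footprints in ctrl cells, ctrl Torin1 replicate 2 has no partner. All members could be named, with full statistics for the called members with the largest changes in each comparison and the extremes of each family. Members, gene lists and the split of leaders at 100 nt were chosen with earlier results of these data known. Leaders and starts came from GENCODE vM21 (12703 of 12759 transcripts annotated) and RefSeq (28 members matched), both GRCm38. The check of the cell line against its own markers is not reported here.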

Additional observations from a re-analysis of the deposited data

How the results depend on the processing

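Most calls in TE and footprints kept their direction, and no member changed sign with a call, over the alternatives run. Lower calls in TE with Torin1 ranged from 4 to 7 in ctrl and 11 to 15 in KO cells when 1 library was left out, and higher calls from 0 to 2 and 6 to 7. In footprints the ranges were 8 to 10 and 11 to 17 lower and 0 to 2 and 3 to 4 higher. In mRNA they were 0 to 2 lower and 0 to 1 higher in each genotype. Between KO and ctrl cells in Torin1 they were 1 to 3 higher in TE and in footprints (3 without ctrl Torin1 replicate 3 of the ribo-seq) and 0 to 1 lower in mRNA, and in DMSO 0 throughout.

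The replicate block gave 2 lower mRNAs with Torin1 in each genotype, 4 lower mRNAs in KO than in ctrl cells in DMSO and 8 in Torin1, 1 lower and 4 higher in footprints and 2 higher in TE for KO against ctrl in Torin1, and 0 higher in TE with Torin1 in ctrl cells. It changed no other count of calls by over 1.5 times. Over all transcripts it called 350 of 10958 mRNAs lower with Torin1 in ctrl and 717 of 11004 in KO cells. Without scaling beyond library size, 7 and 10 members were higher in footprints with Torin1 in ctrl and KO cells, 2 were higher in TE in ctrl cells and 2 in footprints for KO against ctrl in Torin1. The eIF3 medians in TE were then -0.38 and -0.47, and that of the other families in KO cells 0.24. The median of all transcripts and the number of them called higher with Torin1 moved up as well, as given above. DESeq2 gave 2 lower mRNAs with Torin1 in each genotype, 1 higher in footprints in ctrl cells, and for KO against ctrl in Torin1 1 lower mRNA, 2 higher in footprints (also with its size factors in edgeR) and 3 higher in TE. With no filter on low counts, 0 mRNAs and 0 in TE were higher with Torin1 in ctrl cells, limma-voom gave 0 and 2 higher in TE for Torin1 in ctrl and for KO against ctrl in Torin1, and 1 fit of all 4 conditions gave 3 lower mRNAs and 2 higher in TE in ctrl cells, 0 higher mRNAs in KO cells and 0 higher in TE for KO against ctrl in Torin1. The cause of these differences was not tested. Over all transcripts DESeq2 called 253 of 10958 mRNAs lower with Torin1 in ctrl and 598 of 11004 in KO cells. The fit of all 4 conditions called 550 of 11073 mRNAs lower with Torin1 in ctrl cells. The shallowest ribo-seq library gave 107 counts for Eif3f and 11 for Eif1b, which limits the precision of their footprints there.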

Other observations

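Members of the pathway that act on these factors were also followed. Of the 4 kinases of eIF2 alpha and the 2 regulatory subunits of its phosphatase, none was called in TE with Torin1 in ctrl cells. In KO cells Ppp1r15a, the stress-induced phosphatase subunit also called GADD34, rose in TE by 1.12 (SE 0.228, adjusted p = 0.000583, edgeR's quasi-likelihood test), and the estimate in ctrl cells was 0.91 (adjusted p = 0.299). Its mRNA fell in both genotypes, by 0.54 in ctrl (adjusted p = 0.0425) and fell by 0.35 in KO cells (adjusted p = 0.029). Bzw1 and Bzw2, proteins that mimic eIF5 and compete with it, rose in TE in KO cells by 0.69 (SE 0.118, adjusted p = 8.77e-05) and by 0.53 (SE 0.119, adjusted p = 0.00144), beside the rise of Eif5 in the same cells. In ctrl cells their estimates were 0.48 and 0.42 without a call.

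Pabpc1, the poly(A)-binding protein, was the other of 9 accessory factors with a call, with TE changes of -2.90 in ctrl (SE 0.206, adjusted p = 1.15e-08) and of -3.11 in KO cells (SE 0.154, adjusted p = 9.97e-14), beyond any initiation factor outside eIF4. Eif4ebp1, an inhibitor of eIF4E, fell in TE by 0.66 in ctrl (adjusted p = 0.0487) and fell by 0.76 in KO cells (adjusted p = 0.00143). Dhps and Dohh, the enzymes that make hypusine on eIF5A, had no call in TE, with estimates of -0.20 and 0.08 in ctrl and of -0.38 and 0.33 in KO cells. In mRNA Dohh fell in KO cells by 0.36 (adjusted p = 0.0416).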
